A study of Homo sapiens with 24 samples.

Results

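The miR-130, miR-301 and miR-454 family comprises 5 human hairpins, MIR130A, MIR130B, MIR301A, MIR301B and MIR454. Both arms of each hairpin were taken by position, which gave 10 of the 2652 mature miRNAs in the count tables. All 10 passed the filter on low counts and were among the 626 miRNAs tested. The members were counted in SBC-3, an established human line of small cell lung cancer that the labels call wild type. Small interfering RNAs (siRNAs) or antisense oligonucleotides (ASOs) were reverse transfected at 10 nM and cells were harvested after 72 h. The 24 libraries fell into 8 groups of 3: siSFPQ-2 and siSFPQ-3 against SFPQ, siNONO-3 and siNONO-4 against NONO, the control siRNA siCtrl, ASO-NEAT1-1047 and ASO-NEAT1-1473 against NEAT1, and the control ASO-Ctrl. Every group is transiently transfected cells of 1 line. The labels do not say whether the 3 libraries of a group came from separate cultures, so p-values measure the spread between these libraries, which may be technical.

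A microRNA hairpin is cut from its primary transcript by the Drosha complex and trimmed by Dicer to a duplex of 5p and 3p strands. One strand, the guide, is loaded into an Argonaute protein, while the passenger strand is mostly degraded. The guide recognises target mRNAs mainly through its seed, bases 2 to 8. SFPQ and NONO are nuclear RNA-binding proteins of paraspeckles, and NEAT1 is the long noncoding RNA on which paraspeckles are built. The series set loss of each of the 3 beside the others to ask how SFPQ acts on miRNA biogenesis. The family is studied in lung and other cancers, where miR-301a in particular has been described as growth promoting.

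Mature sequences were available for 8 of the 10 members, from RefSeq on GRCh38.p14. The 3p sequences show what makes these miRNAs 1 family, and capitals mark the seed, AGUGCAA, which is shared by all 4:
miR-130b-3p: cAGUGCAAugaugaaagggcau
miR-301a-3p: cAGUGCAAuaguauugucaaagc
miR-301b-3p: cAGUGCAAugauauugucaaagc
miR-454-3p: uAGUGCAAuauugcuuauagggu
No 2 of the 4 passenger sequences have the same seed. Within bases 2 to 8, again in capitals, miR-130a-5p and miR-130b-5p differ only at base 8:
miR-130a-5p: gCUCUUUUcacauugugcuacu
miR-130b-5p: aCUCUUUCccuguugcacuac
miR-301a-5p: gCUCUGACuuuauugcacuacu
miR-454-5p: aCCCUAUCaauauugucucugc
The MIR301A hairpin is shown whole because its arms changed in ratio, with the 5p arm first and the 3p arm second in capitals:
MIR301A: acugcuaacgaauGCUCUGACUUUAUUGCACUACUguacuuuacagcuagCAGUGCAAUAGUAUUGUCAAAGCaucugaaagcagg

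The remaining members are miR-130a-3p and miR-301b-5p. The letters UUGCACU, the exact complement of the seed, were searched on the given strand of the mature sequences. They were found in miR-130b-5p and miR-301a-5p, 2 of the 4 passenger sequences, and in 8 of 2370 mature miRNAs (0.338%). The other mature miRNAs of the tables with this seed were miR-3666 and miR-4295. miR-3666 had 1 count in 1 library and miR-4295 had 0 counts in all 24 libraries.

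The hairpins lie at 3 places on hg38. MIR301A (chr17:59151136-59151221, minus strand) and MIR454 (chr17:59137758-59137872, minus strand) lie 13263 bases apart in introns of SKA2, which encodes a spindle and kinetochore protein. MIR301B (chr22:21652981-21653058, plus strand) and MIR130B (chr22:21653304-21653385, plus strand) lie 245 bases apart within the noncoding gene AP000553.1, where miR-130b-3p overlaps an exon and the other 3 products are intronic. MIR130A (chr11:57641198-57641286, plus strand) is intronic in the noncoding gene AP000662.1. These annotations are from GENCODE v29.

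Libraries held 2038382 to 4279644 miRNA counts. Levels are given as CPM (counts per 1000000 counts of the library), with library sizes scaled by the trimmed mean of M values (TMM). Mature members are 21 to 23 bases long and a small RNA read spans the whole miRNA, so CPM was not divided by length. The libraries are of bulk RNA, so a lower level in each cell and fewer cells with the miRNA cannot be told apart. The neuroendocrine and neural list gave miR-9-5p at 46767 to 106856 CPM and miR-7-5p at 6849 to 19907 CPM, but miR-375-3p at 0.257 to 8.55 CPM and miR-124-3p at 0 to 1.41 CPM, near 0. Among blood markers, miR-142-3p reached 151 CPM and miR-223-3p, miR-150-5p and miR-451a stayed at or below 1.13 CPM. The muscle markers miR-1-3p, miR-133a-3p and miR-206 reached 553, 109 and 8.78 CPM. The mRNAs of SFPQ and NONO and the NEAT1 transcript were not measured by this assay, so the knockdowns were not checked here.

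Several members could not be separated. miR-301a-3p and miR-301b-3p differ in 2 bases, A10G and G11A, with positions counted from the 5′ end and the miR-301a-3p base first. Their counts had a ratio of 1.01 to 1.04 in the 24 libraries, so the 2 values are treated as 1 measurement. miR-130a-3p over miR-130b-3p was 1.08 to 1.28, with a coefficient of variation of 5.34%, and whether these share reads was not tested. The passenger strands were distinct: miR-301a-5p exceeded miR-301b-5p by 7.11 to 18.7 times, and miR-130a-5p over miR-130b-5p ran from 0.0688 to 0.765.

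One control library stood apart. In siCtrl replicate 1 the 10 members took 0.526% of miRNA counts, against 1.149% and 1.098% in siCtrl replicates 2 and 3. Its guides of the miR-130 and miR-301 hairpins were low, whereas miR-454-3p was not. Along the second principal component of all tested miRNAs it lay at -11.7, with ASO-NEAT1-1047 replicate 3 at -10.2 and the other libraries between -6.86 and 8.18. For the comparisons of both siRNAs of a target with siCtrl, values without its replicate 1 are therefore given beside the main ones, whereas comparisons of single siRNAs used all 3 siCtrl libraries.

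**Figure D1:**
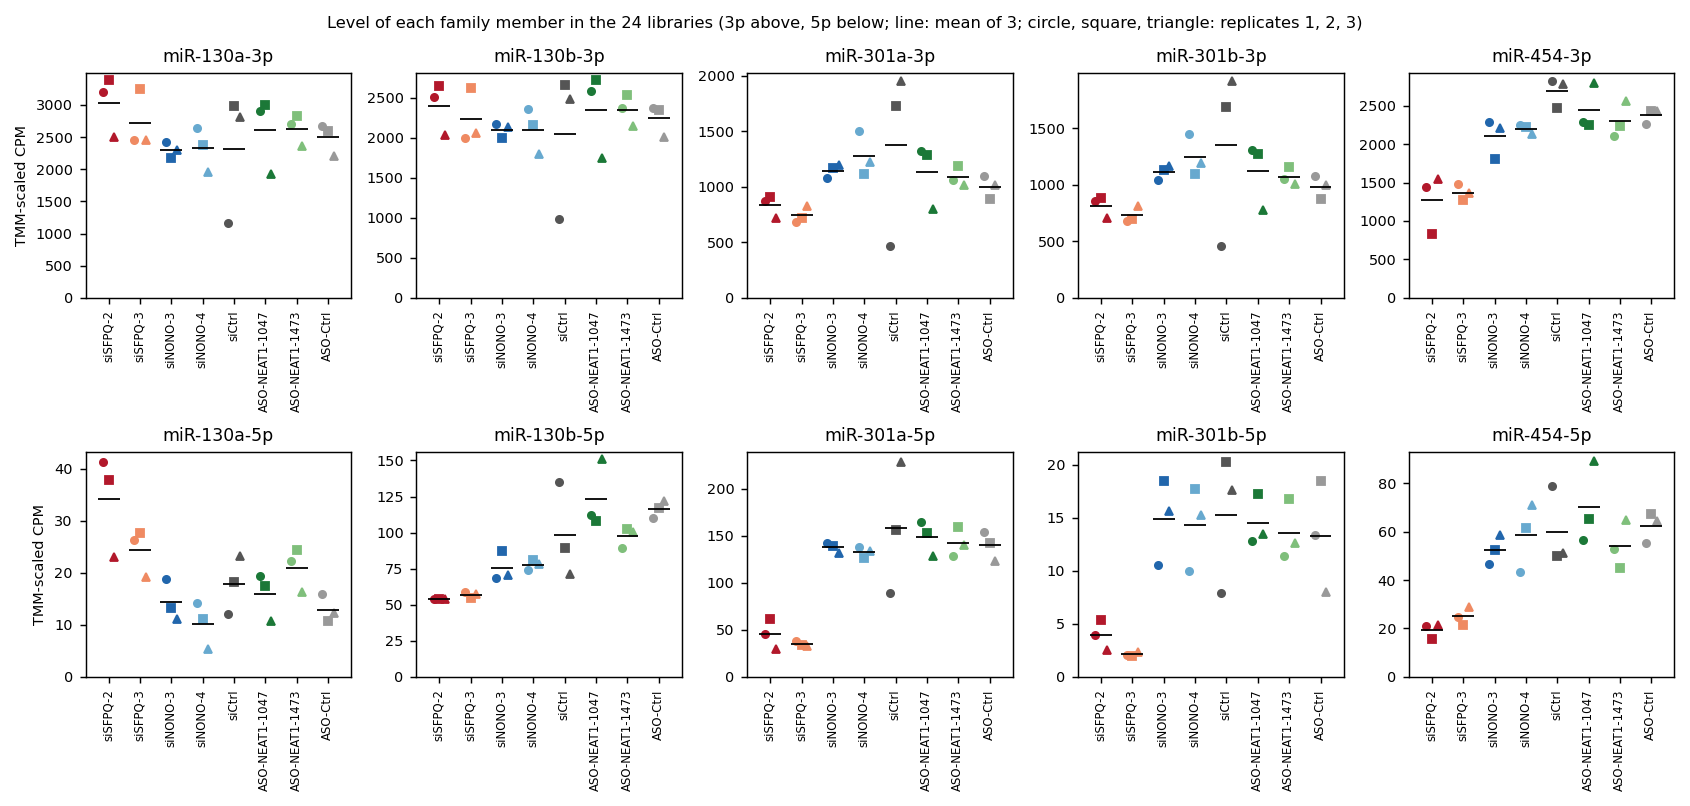
Level of each of the 10 members in TMM-scaled CPM (y axes from 0) in the 24 libraries by group, with the 3p members above and the 5p members below; points are libraries and lines are means of 3. The siSFPQ points of miR-301a-5p (30.0 to 61.9 CPM), miR-301b-5p, miR-130b-5p, miR-454-5p and miR-454-3p lie below all siCtrl points. The share of all miRNAs that separate in this way was not counted. siCtrl replicate 1 is the lowest library for miR-301a-3p at 467 CPM.

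By counts, the 3p strand exceeded the 5p strand at all 5 hairpins in each of the 24 libraries. The 5p strand took at most 16.0% of a hairpin's counts. For MIR301A and MIR301B the 3p count is the shared miR-301 value, so the 3p output of each of these hairpins is not known. miR-454-3p, miR-130a-3p and miR-130b-3p were the most abundant members, with group means from 1272 to 2691 CPM, 2299 to 3028 CPM and 2042 to 2393 CPM. miR-301a-3p had group means from 745 to 1380 CPM. Passengers were scarcer, from 34.9 to 158 CPM for miR-301a-5p, 54.0 to 124 CPM for miR-130b-5p, 19.2 to 70.3 CPM for miR-454-5p, 10.2 to 34.1 CPM for miR-130a-5p and 2.11 to 15.2 CPM for miR-301b-5p.

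After SFPQ knockdown, most of the family fell, and the largest falls were of passenger strands. Over both siRNAs against siCtrl, 7 of 10 members were lower and 1 was higher at an adjusted p under 0.05 (edgeR quasi-likelihood test, Benjamini-Hochberg over all tested miRNAs). Among all 626 miRNAs, 22.7% were called lower and 25.6% higher. The median log2 fold change was -0.82 over the 10 members and 0.02 over all miRNAs. It was -0.81 over the 5 guides and -1.45 over the 5 passengers. Medians over members or guides, here and below, count the shared miR-301 value under both names. The guide median of -0.81 was itself that value. The remaining guides were at 0.31 (miR-130a-3p), 0.18 (miR-130b-3p) and -1.03 (miR-454-3p), so this median does not show a fall of the guides as a set. Without siCtrl replicate 1 the median was -1.13 over the members and 0.13 over all miRNAs, with 7 members lower and 0 higher. Of the 646 miRNAs tested there, 137 were lower and 156 higher. That fit gave medians of -1.03 over the guides and -1.24 over the passengers. In it, miR-130a-3p was at -0.05, miR-130b-3p at -0.19, miR-454-3p at -1.03 and the miR-301 guides at -1.26. The lower members were 3 guides, 2 of which share their counts, and 4 passengers. Scaled by library totals in place of TMM, the median of all miRNAs was 0.47, with 252 miRNAs higher and 67 lower against 160 and 142 with TMM, and 4 members were lower and 3 higher. Scaled by spike-in totals the median was 0.21, with 182 miRNAs higher and 90 lower, and 5 members were lower and 1 higher.

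miR-301a-5p (MIMAT0022696), the passenger of the SKA2 hairpin MIR301A, had 45.6, 61.9 and 30.0 CPM with siSFPQ-2 and 38.0, 34.2 and 32.6 CPM with siSFPQ-3, against 88.8, 156 and 229 CPM with siCtrl. All 6 siSFPQ libraries lay below all 3 siCtrl libraries. Here and below, the share of all miRNAs or hairpins that separate in this way was not counted. By the test, 22.7% of all miRNAs were called lower after SFPQ knockdown. miR-301a-5p fell by 1.98 on the log2 scale (SE 0.22, edgeR adjusted p = 8.53e-08), and by 2.30 without siCtrl replicate 1.

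miR-301b-5p (MIMAT0032026), the passenger of the chromosome 22 hairpin MIR301B, was the scarcest member. It had 3.92, 5.37 and 2.56 CPM with siSFPQ-2 and 2.04, 1.97 and 2.33 CPM with siSFPQ-3, against 7.87, 20.3 and 17.6 CPM with siCtrl. These levels rest on 7 to 17 counts in each siSFPQ library and 21 to 61 counts in each siCtrl library, and the groups did not overlap. The log2 fold change was -2.38 (SE 0.32, edgeR adjusted p = 2.48e-06), the most negative among the members, and -2.74 without siCtrl replicate 1.

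Both strands of MIR454, the neighbour of MIR301A in SKA2, fell. miR-454-3p (MIMAT0003885) had 1440.3, 825 and 1549.7 CPM with siSFPQ-2 and 1479, 1268 and 1358 CPM with siSFPQ-3, against 2821, 2475 and 2778 CPM with siCtrl. miR-454-5p (MIMAT0003884) had 20.8, 15.5 and 21.2 CPM with siSFPQ-2 and 24.9, 21.5 and 28.7 CPM with siSFPQ-3, against 78.7, 49.8 and 51.2 CPM with siCtrl. For both strands all 6 siSFPQ libraries lay below all siCtrl libraries, and siCtrl replicate 1 was not low. The guide fell by 1.03 on the log2 scale (SE 0.16, edgeR adjusted p = 9.75e-06) and the passenger by 1.45 (SE 0.20, adjusted p = 3.98e-06). Without siCtrl replicate 1 the guide fell by 1.03 and the passenger by 1.24.

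miR-130b-5p (MIMAT0004680), the passenger of MIR130B, had 54.0, 54.3 and 53.8 CPM with siSFPQ-2 and 58.6, 54.4 and 57.6 CPM with siSFPQ-3, against 135, 89.3 and 71.0 CPM with siCtrl. The 6 siSFPQ libraries were close to each other and below every siCtrl library. The log2 fold change was -0.83 (SE 0.17, edgeR adjusted p = 0.000433), and -0.57 without siCtrl replicate 1.

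The miR-301 guides were called lower on less even data. miR-301a-3p (MIMAT0000688) had 872, 908 and 719 CPM with siSFPQ-2 and 688, 715 and 831 CPM with siSFPQ-3, against 467, 1724 and 1949 CPM with siCtrl. The siSFPQ libraries lay above siCtrl replicate 1 and below siCtrl replicates 2 and 3, so the groups overlapped. miR-301a-3p and miR-301b-3p (MIMAT0004958) each fell by 0.81 on the log2 scale (SE 0.26, edgeR adjusted p = 0.0135 for both). Without siCtrl replicate 1 both fell by 1.26, and without siCtrl replicate 3 both had a log2 fold change of -0.50 that missed the threshold (adjusted p = 0.179). For miR-301a-3p, siCtrl replicates 2 and 3 lay above every library of the other groups, the highest of which had 1499 CPM. ASO-Ctrl had 888 to 1097 CPM.

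Both strands of MIR130A and the guide of MIR130B were not called lower. miR-130a-3p (MIMAT0000425) had 3205, 3382 and 2496 CPM with siSFPQ-2 and 2449, 3248 and 2459 CPM with siSFPQ-3, against 1166, 2981 and 2807 CPM with siCtrl. Its log2 fold change was 0.31 (edgeR adjusted p = 0.264), and that of miR-130b-3p (MIMAT0000691) was 0.18 (adjusted p = 0.524). Neither passed the test, and without siCtrl replicate 1 the values were -0.05 and -0.19. miR-130a-5p (MIMAT0004593) had 41.3, 37.9 and 23.1 CPM with siSFPQ-2 and 26.2, 27.6 and 19.1 CPM with siSFPQ-3, against 12.0, 18.3 and 23.1 CPM with siCtrl. The groups overlapped, with 4 of 6 siSFPQ libraries above all siCtrl libraries. Its log2 fold change of 0.71 lay just inside the threshold (SE 0.29, edgeR adjusted p = 0.0496), and without siCtrl replicate 1 it was 0.45 with an adjusted p of 0.287.

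The siRNAs against SFPQ were also set against siCtrl one at a time. With siSFPQ-2 alone, 5 members were lower and 1 was higher, where 15.5% and 23.2% of all miRNAs were called lower and higher. With siSFPQ-3 alone, 7 were lower and 0 higher, where 21.7% and 22.7% of all miRNAs were called. The extra lower calls with siSFPQ-3 in edgeR were the miR-301 guides, which had log2 fold changes of -0.89 with siSFPQ-3 and -0.73 with siSFPQ-2. DESeq2 called both miR-301 guides lower with siSFPQ-2 as well (adjusted p = 0.0417 for miR-301a-3p and 0.0406 for miR-301b-3p). Directly compared, siSFPQ-3 against siSFPQ-2 had 0 of 10 members called by edgeR or DESeq2, where edgeR called 0.639% of all miRNAs. At an unadjusted p under 0.05 in edgeR there were 0 members. Here and below, the share of all miRNAs at an unadjusted p under 0.05 was not counted. The widest gap was for miR-301b-5p, at a log2 difference of -0.91 (SE 0.44, edgeR adjusted p = 0.678).

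**Figure D2:**
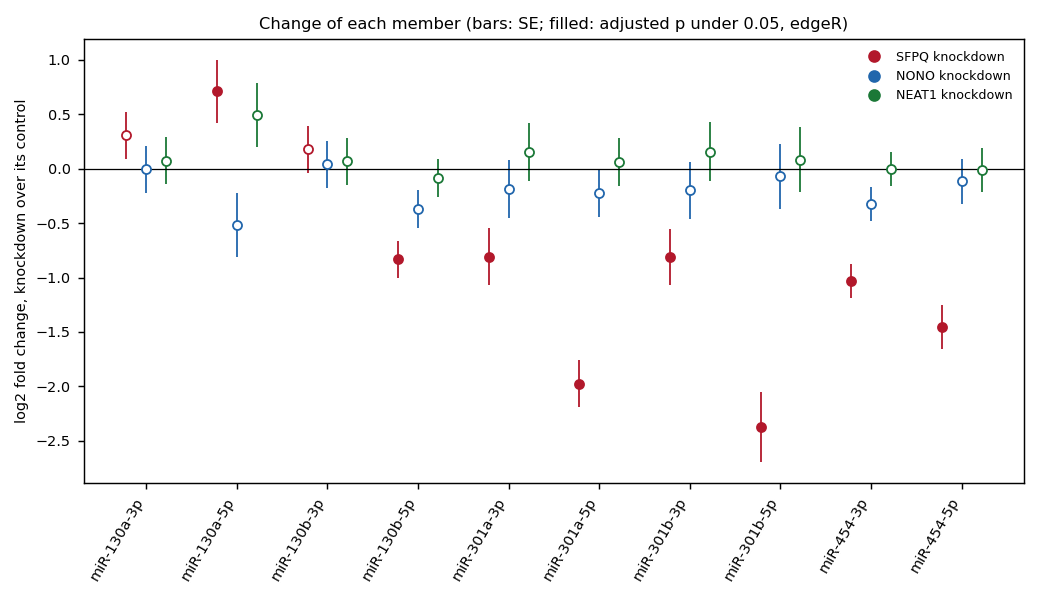
Log2 fold change of each member (y axis) after SFPQ, NONO and NEAT1 knockdown over its own control, as the mean of 2 reagents with bars of 1 SE; filled points have an edgeR adjusted p under 0.05. The filled points all belong to SFPQ knockdown and run from -2.38 for miR-301b-5p to 0.71 for miR-130a-5p.

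After NONO knockdown, 0 of 10 members were called by edgeR or DESeq2 against siCtrl. 1 member, miR-130b-5p, had an unadjusted p under 0.05 in edgeR, with a log2 fold change of -0.37 and of -0.13 without siCtrl replicate 1, and 1.6% of all 626 miRNAs were called. The median log2 fold change was -0.19 over the members and 0.01 over all miRNAs. The members' median rested on single control libraries: it was -0.42 without siCtrl replicate 1 and 0.03 without siCtrl replicate 3. miR-301a-5p ran from 126 to 142 CPM in the 6 siNONO libraries, inside the siCtrl range of 88.8 to 229 CPM. miR-301b-5p ran from 10.0 to 18.5 CPM, also inside its siCtrl range. miR-454-3p was the exception in its spread. Its 1802 to 2286 CPM in the siNONO libraries lay below all siCtrl libraries (2475 to 2821 CPM). So did the ASO-Ctrl libraries, at 2262 to 2431 CPM, so this separation was not particular to NONO knockdown. The log2 fold change with siNONO was -0.32 (SE 0.16, edgeR adjusted p = 0.415), and -0.35 without siCtrl replicate 1. miR-301a-3p ran from 1080.2 to 1499 CPM with siNONO, and its log2 fold change was -0.19 (adjusted p = 0.874). That of the miR-301 guides depended on the control library that stood apart. With siCtrl replicate 1 left out, miR-301a-3p was at -0.66 (edgeR adjusted p = 0.0723). With ASO-NEAT1-1047 replicate 3 left out too it passed at -0.66 (adjusted p = 0.0147), in a fit that called 21 of 645 miRNAs higher and 16 lower. The siCtrl replicates then left had 1724 and 1949 CPM, above every library of the other groups. ASO-Ctrl, at 888 to 1097 CPM, had a log2 difference of -0.46 from all siCtrl libraries (edgeR adjusted p = 0.755).

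SFPQ and NONO knockdown were also compared directly, so that the siCtrl libraries do not enter the difference. 8 of 10 members differed by the same test, 7 lower and 1 higher with siSFPQ than with siNONO, where 56.5% of all miRNAs differed, 26.8% lower and 29.7% higher. The median log2 difference was -0.62 over the members and -0.005 over all miRNAs. miR-301b-5p (-2.31), miR-301a-5p (-1.75) and miR-454-5p (-1.34) differed most, followed by miR-454-3p (-0.70), miR-301a-3p (-0.62), miR-301b-3p (-0.61) and miR-130b-5p (-0.46). The last 4 of these depended on the scaling. With library totals the median of all miRNAs was 0.33 and that of the members -0.27, 257 miRNAs were higher and 93 lower in place of 186 and 168, and 4 members were lower and 3 higher. There miR-301a-3p (-0.28), miR-301b-3p (-0.27) and miR-130b-5p (-0.12) no longer passed, while miR-130a-3p (0.65) and miR-130b-3p (0.48) passed as higher, and miR-454-3p passed at -0.38. With spike-in totals the median of all miRNAs was 0.26 and that of the members -0.35, 228 miRNAs were higher and 95 lower, and 3 members were lower and 2 higher. There miR-454-3p (-0.42, adjusted p = 0.056), miR-301a-3p (-0.35), miR-301b-3p (-0.34) and miR-130b-5p (-0.18) did not pass, and miR-130a-3p passed as higher at 0.60. The miR-301 guide calls also ended when any of several single libraries was left out: siSFPQ-2 replicates 1 or 3, siSFPQ-3 replicates 1 or 2, siNONO-3 replicates 2 or 3, or siNONO-4 replicate 1, and for miR-301b-3p also siNONO-3 replicate 1 or siNONO-4 replicate 3. Without these libraries in turn the log2 difference of miR-301a-3p was -0.52 to -0.60 (edgeR adjusted p = 0.0505 to 0.0821). miR-130a-5p was higher with siSFPQ than with siNONO by 1.23 on the log2 scale (SE 0.23, edgeR adjusted p = 0.000107). It had 19.1 to 41.3 CPM in siSFPQ libraries and 5.36 to 18.9 CPM in siNONO libraries, which did not overlap. For miR-301a-5p the ranges were 30.0 to 61.9 CPM with siSFPQ and 126 to 142 CPM with siNONO.

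After NEAT1 knockdown, 0 of 10 members were called by edgeR or DESeq2 against ASO-Ctrl, and 0 had an unadjusted p under 0.05 in edgeR. Among all 626 miRNAs, edgeR called 0% at an adjusted p under 0.05. The log2 fold changes of the members ran from -0.09 for miR-130b-5p to 0.49 for miR-130a-5p (SE 0.29, edgeR adjusted p = 0.908). miR-301a-5p had 128 to 165 CPM in the 6 ASO-NEAT1 libraries and 124 to 154 CPM with ASO-Ctrl. miR-454-3p had 2108 to 2798 CPM with the ASOs against NEAT1 and 2262 to 2431 CPM with ASO-Ctrl. Between the controls, ASO-Ctrl against siCtrl had 0 of 10 members called by either tool, where edgeR called 0.479% of all miRNAs. At an unadjusted p under 0.05 in edgeR there were 0 members.

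Ordered over the 8 groups, miR-301a-5p averaged 34.9 ± 2.79 CPM with siSFPQ-3, 45.8 ± 15.9 CPM with siSFPQ-2, 132 ± 5.98 CPM with siNONO-4 and 138 ± 5.31 CPM with siNONO-3 (SD, n = 3 each). The NEAT1 and control groups followed at 139.9 ± 15.3 CPM for ASO-Ctrl, 143 ± 15.6 CPM for ASO-NEAT1-1473, 149 ± 18.5 CPM for ASO-NEAT1-1047 and 158 ± 70.1 CPM for siCtrl. Neighbours from siNONO-4 upward differed by less than their spread, and so did the siSFPQ groups from each other. miR-454-3p had the same break in its order. It averaged 1272 ± 390.5 CPM with siSFPQ-2 and 1368 ± 106 CPM with siSFPQ-3, then 2101 ± 262 CPM with siNONO-3, and 2691 ± 189 CPM with siCtrl at the top.

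The arm balance of each hairpin was tested within libraries, as the log2 change of the minor over the major arm, here 5p over 3p, across 288 hairpins with both arms counted (edgeR). This ratio does not depend on library scaling. After SFPQ knockdown the 5p share fell in 2 of the 5 hairpins, MIR301A and MIR301B, and rose in 0. Of all 288 hairpins, 3.82% had a fall of the minor arm and 9.03% a rise. The median log2 change was -1.07 over the 5 hairpins and 0.15 over all. Without siCtrl replicate 1 the 5 hairpins had a median of -0.37, with all hairpins still at 0.15 and the same number of family hairpins called. Of the 285 hairpins tested there, 11 had a fall of the minor arm and 22 a rise.

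In MIR301A, the 5p strand made up 4.97%, 6.38% and 4.01% of counts with siSFPQ-2 and 5.24%, 4.56% and 3.77% with siSFPQ-3, against 16.0%, 8.30% and 10.5% with siCtrl. The 6 siSFPQ shares lay below all siCtrl shares. The Wilson 95% interval reached 7.30% in the highest siSFPQ library (196 of the 5p strand beside 2877 of the 3p strand) and began at 7.61% in the lowest siCtrl library. Such intervals cover counting error only. The log2 change of 5p over 3p was -1.33 (SE 0.20, edgeR adjusted p = 0.000152), and -1.04 without siCtrl replicate 1.

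In MIR301B the 5p share was 0.458%, 0.604% and 0.361% with siSFPQ-2 and 0.300%, 0.280% and 0.285% with siSFPQ-3, against 1.70%, 1.18% and 0.912% with siCtrl. Again the groups did not overlap. The log2 change was -1.68 (SE 0.34, edgeR adjusted p = 0.00207), and -1.49 without siCtrl replicate 1. The guide counts of MIR301A and MIR301B are nearly the same in each library, so both ratios divide a passenger of its own by 1 shared guide value. Ranked from the most negative change among the 288 hairpins, MIR301B was number 15 and MIR301A number 22.

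The other hairpins did not pass. MIR130B had 5p shares of 2.01% to 2.85% in the siSFPQ libraries, against 12.0%, 3.25% and 2.78% with siCtrl. Its log2 change was -1.07 (SE 0.36, edgeR adjusted p = 0.0597) and -0.37 without siCtrl replicate 1, in which the 5p share was highest. MIR454 had 1.35% to 2.07% with siSFPQ and 1.81% to 2.71% with siCtrl, and a log2 change of -0.39 (adjusted p = 0.204), or -0.20 without siCtrl replicate 1. MIR130A had 0.772% to 1.27% with siSFPQ and 0.609% to 1.02% with siCtrl, and a log2 change of 0.33 (adjusted p = 0.383), or 0.50 without siCtrl replicate 1.

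**Figure D3:**
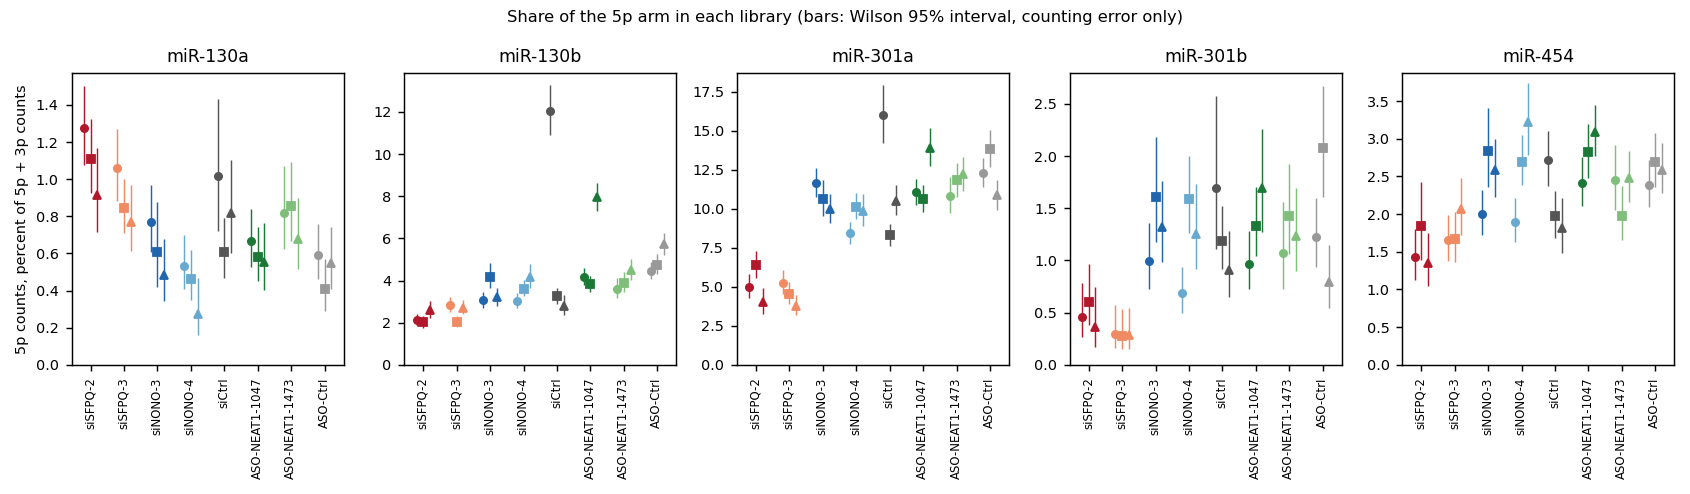
Share of the 5p strand in the counts of each hairpin (percent, y axes from 0) in every library by group, with Wilson 95% intervals. The siSFPQ shares of miR-301a (3.77% to 6.38%) lie below the siCtrl shares (8.30% to 16.0%), and siCtrl replicate 1 has the highest miR-130b share at 12.0%.

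Arm balance was also tested after the other knockdowns. Against their controls, 0% of the 288 hairpins were called after NONO and after NEAT1 knockdown (edgeR). At an unadjusted p under 0.05 there were 22 and 9 hairpins, 1 and 0 of them in the family. limma called 0 of the 5 hairpins in both as well. MIR301A had 5p shares of 8.42% to 11.7% in siNONO libraries and 8.30% to 16.0% with siCtrl. It had 10.6% to 13.9% in ASO-NEAT1 libraries and 10.9% to 13.8% with ASO-Ctrl. MIR130A had the hairpin set's 1 unadjusted call, with 0.274% to 0.769% in siNONO libraries against 0.609% to 1.02% with siCtrl and a log2 change of -0.61 (edgeR adjusted p = 0.545), or -0.43 without siCtrl replicate 1.

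Between SFPQ and NONO knockdown, 4 of the 5 hairpins differed in arm balance, where 22.2% of all hairpins differed, 5.56% toward less of the minor arm and 16.7% toward more. The log2 difference of 5p over 3p was -1.69 for MIR301B (SE 0.28, edgeR adjusted p = 0.000168), -1.16 for MIR301A (adjusted p = 3.11e-05) and -0.61 for MIR454 (adjusted p = 0.00468). MIR130A differed the other way, by 0.94 (SE 0.17, adjusted p = 0.000325), with 5p shares of 0.772% to 1.27% with siSFPQ and 0.274% to 0.769% with siNONO. MIR130B did not pass (-0.59, adjusted p = 0.157).

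**Figure D4:**
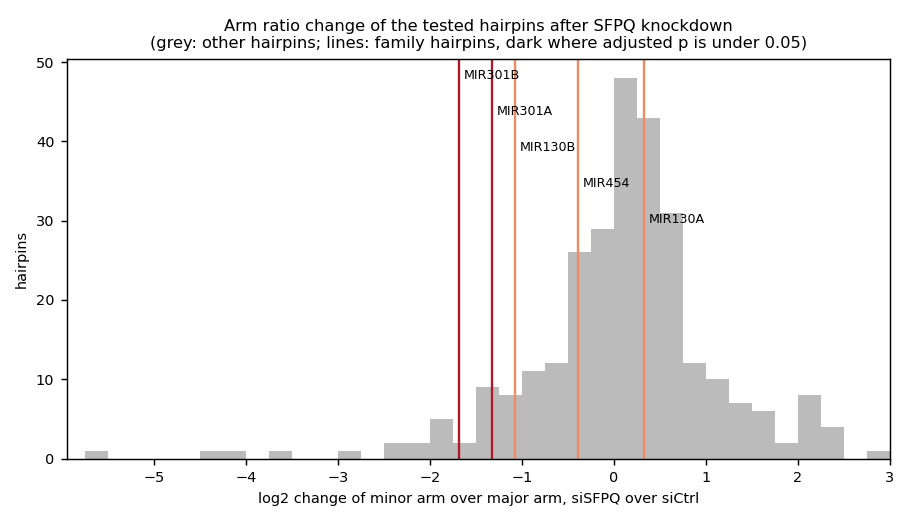
Histogram of the log2 change of minor over major arm, siSFPQ over siCtrl (x axis), for the tested hairpins outside the family (y axis, number of hairpins), with vertical lines at the 5 family hairpins. MIR301B (-1.68) and MIR301A (-1.33) lie in the left tail, whereas MIR130A (0.33) lies near the median of all hairpins (0.15).

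Summed over the 5 passengers, the family had 157 ± 23.3 CPM with siSFPQ-2, 143 ± 5.65 CPM with siSFPQ-3, 295 ± 13.1 CPM with siNONO-3 and 293 ± 12.3 CPM with siNONO-4, against 349 ± 37.2 CPM with siCtrl (SD, n = 3 each). The guides, with the shared miR-301 value counted once, summed to 7526 ± 649 CPM with siSFPQ-2, 7059 ± 689 CPM with siSFPQ-3, 7644 ± 449.9 CPM with siNONO-3 and 7901 ± 825 CPM with siNONO-4, against 8432 ± 2590.5 CPM with siCtrl. These guide sums hold miR-130a-3p and miR-130b-3p in full, and whether those share reads was not tested. The passenger sums of siSFPQ lay below those of all other groups. The guide sums ran from 6615 to 8027 CPM in the siSFPQ libraries and from 7091 to 8740 CPM in the siNONO libraries, against 5442, 9838 and 10015 CPM with siCtrl. The siSFPQ and siNONO guide sums thus overlapped the range of siCtrl only through its replicate 1, and all lay below siCtrl replicates 2 and 3. So did the guide sums of all ASO libraries, ASO-Ctrl included, at 7274 to 9250 CPM. Lying below these siCtrl replicates was therefore not particular to SFPQ or NONO knockdown. With NEAT1 knockdown the passengers summed to 373 ± 17.1 CPM (ASO-NEAT1-1047) and 329 ± 22.7 CPM (ASO-NEAT1-1473), against 345 ± 13.1 CPM with ASO-Ctrl.

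Guides were also compared as ratios within libraries. The miR-301 guides are 1 measurement, so the same value stands for chromosome 17 and chromosome 22 in these ratios, which cannot be assigned to 1 locus. miR-130b-3p over miR-301b-3p had a mean log2 of 1.58 ± 0.18 in the 6 siSFPQ libraries and 0.71 ± 0.37 in the 3 siCtrl libraries. The difference of 0.86 gave p = 0.0238 by a two-sided exact permutation test, the smallest that 6 against 3 libraries allow, and 0.143 after adjustment over the 6 ratio tests. Without siCtrl replicate 1 the difference was 1.06. miR-301a-3p over miR-454-3p had -0.72 ± 0.46 with siSFPQ and -1.21 ± 1.20 with siCtrl (exact permutation p = 0.5, adjusted p = 0.667). The difference of 0.49 turned to -0.21 without siCtrl replicate 1. The other 4 ratio tests, for NONO and NEAT1 knockdown, gave exact permutation p-values from 0.452 to 0.667. After NONO knockdown the difference in miR-301a-3p over miR-454-3p was 0.38, and -0.31 without siCtrl replicate 1, and that in miR-130b-3p over miR-301b-3p was 0.12, and 0.32 without it.

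Over the 24 libraries, the miRNAs whose log2 CPM followed the mean standardised guide profile most closely were miR-545-5p (Pearson r = 0.934), miR-19a-3p (0.913) and miR-19b-3p (0.912). For the passengers they were miR-651-5p (0.940), miR-152-3p (0.936) and miR-15b-3p (0.925). Neither profile was common to all its members, and the guide profile counted the shared miR-301 value under both names. Among guides, miR-454-3p correlated at -0.47 with miR-130a-3p and -0.29 with miR-130b-3p, but at 0.33 with miR-301a-3p. Among passengers, miR-130a-5p correlated at -0.79 to -0.47 with the others, which correlated at 0.63 to 0.95 with each other. All these correlations are descriptions over libraries that share depth and scaling and of which the siSFPQ libraries stand apart from the rest. miR-651-5p averaged 21.0 CPM in siSFPQ libraries and 66.6 CPM in siCtrl libraries.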

How the data were processed

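Small RNA libraries were made from 100 ng of total RNA with spike-in oligonucleotides and the QIAseq miRNA kit, per the labels' protocols. The deposited values are whole-number read counts per mature miRNA locus, made by the authors with featureCounts 2.0.3 per the file headers. Named in the submitters' processing notes, without roles, are UMI-tools 1.1.1, Bowtie 1.3.0, Trimmomatic 0.39, DESeq2 1.38.1, Subread 2.0.3 and the build hg38. The sources used here do not state whether molecular identifiers were collapsed. For miRNAs with several loci the locus with the largest total was kept, and each member has 1 locus.

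Counts were tested in edgeR 4.0.16 (R 4.3.3): filterByExpr with a minimum count of 10, TMM scaling, 1 quasi-likelihood model with a term per group over 24 libraries (16 residual degrees of freedom), contrasts averaging both reagents of a target, and Benjamini-Hochberg adjustment over all 626 miRNAs at 0.05. Arm ratios used the counts of both arms of a hairpin with a term per library, for hairpins with at least 10 counts over both arms in at least 3 libraries and at least 10 counts of each arm in all. limma 3.58.1 and DESeq2 1.42.0 were alternatives, and scipy 1.17.1 gave exact tests. The miRNAs named beside the members were those with the same seed and the 3 most like each arm's profile. Members and lists were chosen with earlier results of these data known.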

Additional observations from a re-analysis of the deposited data

How the results depend on the processing

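No member changed the direction of a called log2 fold change under any alternative run. The count of members higher after SFPQ knockdown rested on miR-130a-5p: it was 0 with RLE size factors, no filter, sums over loci, a floor on the mean of 10 CPM, only the groups compared, or both siCtrl replicate 1 and ASO-NEAT1-1047 replicate 3 left out, the last chosen after seeing the data, and 0 to 1 over the fits that leave out 1 library. With library totals the median of all miRNAs after SFPQ knockdown was 0.47, all calls after SFPQ knockdown were 252 higher and 67 lower in place of 160 and 142, and 4 members were lower and 3 higher. There miR-130a-3p (0.73) and miR-130b-3p (0.60) passed as higher, and miR-130b-5p (-0.37), miR-301a-3p (-0.38) and miR-301b-3p (-0.39) no longer passed. With spike-in totals the median was 0.21, all calls were 182 higher and 90 lower, the miR-301 guides no longer passed (-0.69 for both), and 5 members differed between SFPQ and NONO knockdown. Between SFPQ and NONO knockdown, the miR-130b-5p call also ended with no filter (-0.44), and the miR-301 guide calls with a floor of 10 CPM (-0.50 and -0.49). Members lower after NONO knockdown were 2 with siCtrl replicate 1 and ASO-NEAT1-1047 replicate 3 left out, namely the miR-301 guides, which are 1 measurement. All calls after NONO knockdown in that fit were 21 higher and 16 lower of 645 miRNAs, in place of 6 and 4. The miR-301 guide calls after SFPQ knockdown also ended without siCtrl replicate 2 (-0.62), without siCtrl replicate 3 (-0.50) and with only the groups compared (-0.76). Calls of miR-301a-5p, miR-301b-5p, miR-454-3p and miR-454-5p after SFPQ knockdown, and of the MIR301A and MIR301B arm ratios, passed under each alternative run. The MIR130B arm ratio passed with limma (adjusted p = 0.0487 with a pseudocount of 0.5 and 0.0384 with 2), with at least 100 counts of each arm (0.0454), and without siCtrl replicate 2 (-1.41) or 3 (-1.49). Apart from these constructions, causes were not tested.

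Same-numbered libraries of a reagent group and its control had deviations that correlated between -0.29 and 0.62, so the replicate numbers were not taken as pairs. With the replicate number as a block, 7 members were lower and 1 higher after SFPQ knockdown, 0 after NONO or NEAT1 knockdown, 8 differed between SFPQ and NONO knockdown, and 2 arm ratios changed, as without it. Over all miRNAs the block gave 168 higher and 150 lower after SFPQ knockdown and 12 higher and 12 lower after NONO knockdown, against 6 and 4 without it. Depth limits miR-301b-5p most, with as few as 7 counts in a library.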
